A study of Mus musculus with 2 samples.

Results

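The genes of innate sensing were followed from receptor to transcription factor in ILCregs, the regulatory innate lymphoid cells of the labels. The list holds 54 genes in 6 groups by role: Toll-like receptors with their co-receptors, cytosolic sensors, inflammasome genes, adaptors and kinases, subunits of the transcription factor NF-kB, and inhibitors of NF-kB. A gene was measured where an array feature (transcript cluster) carried its symbol and no other in the platform annotation. This held for 41 of the 54, each through a single feature, out of 28281 named genes on the array. The other 13 were not analysed here: Cd14, Nlrc5, Tmem173, Nlrc4, Ticam1, Ticam2, Irak1, Irak4, Ripk2, Chuk, Nfkb1, Nfkb2 and Rela.

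The donors were IL-10-GFP knockin mice of C57BL/6 background, 8 weeks old, whose interleukin 10 locus carries a green fluorescent protein gene, and the cells were sorted from their small intestine. The study holds 1 group of 2 whole-transcript Affymetrix arrays, replicate 1 and replicate 2, and no other genotype, treatment or cell population was analysed here. Whether the replicates are different mice or different sorts is not in the labels, and the spread between them may therefore be technical. They give a sort purity of over 95% without naming the gates.

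Toll-like receptors sit in the cell membrane or in endosomes and bind microbial lipids, proteins and nucleic acids. Through adaptor proteins such as MyD88 they activate kinases that release NF-kB from its inhibitors, and NF-kB then switches on cytokine genes together with the genes of its own inhibitors. Cytosolic sensors respond to microbial or displaced molecules inside the cell, and some of them assemble inflammasomes, complexes in which caspase 1 matures interleukin 1 beta and cleaves the pore protein gasdermin D. In the gut these receptors face a dense microbiota, and macrophages, epithelial cells and lymphocytes all express some of them.

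Values are log2 signal, the number of arrays limits their precision, and errors are SDs over the 2 arrays (n = 2). Because probes differ in affinity, a higher signal of one gene than of another does not show more transcript. The background was set from 1678 genes of olfactory, vomeronasal and taste receptors, and their 95th percentile served as a threshold, 6.74 for replicate 1 and 6.19 for replicate 2. Signal below it cannot be told from that background, and the transcript may still be present. Of the reference genes 41 (2.44%) exceeded the threshold on both arrays, and the highest mean signal among them was 10.11. Passing the threshold therefore does not by itself show a transcript. A single group allows no test of a difference, so the text gives no p-value.

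Innate sensing genes were above the threshold on both arrays in 28 of 41 cases (68.3%), against 31.7% of all named genes, 38.9% of 16404 protein-coding genes outside the receptor reference and 2.44% of the reference genes themselves. A further 4 were above on 1 array and 9 on neither. The median signal of the 41 was 8.20, against 5.43 over all named genes. Shares were 6 of 6 for NF-kB inhibitors, 2 of 2 for NF-kB subunits, 6 of 7 for inflammasome genes, 5 of 8 for adaptors and kinases, 7 of 13 for Toll-like receptors and co-receptors and 2 of 5 for cytosolic sensors.

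**Figure D1:**
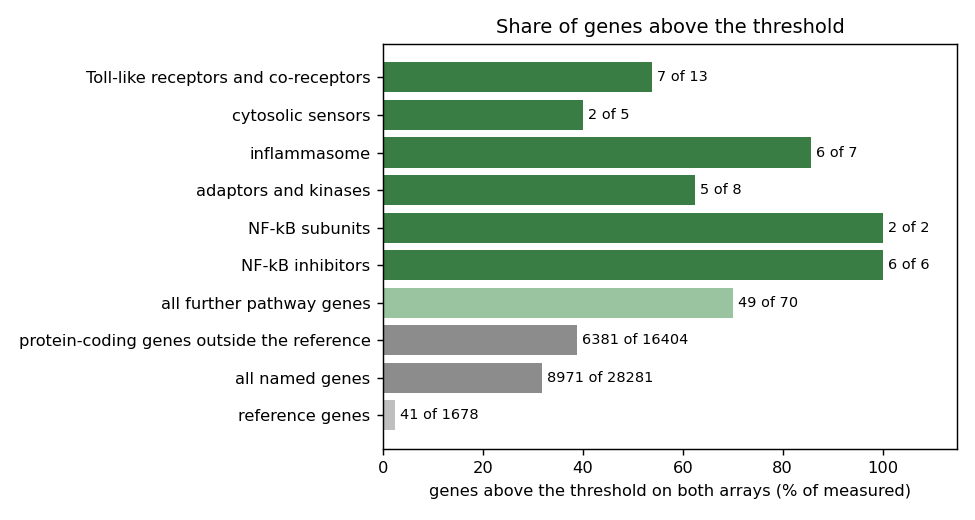
Share of measured genes, in percent, above the threshold on both arrays for the 6 groups (dark green), further genes of the pathway (light green) and all-gene backgrounds (grey), with counts beside the bars. The inflammasome, subunit and inhibitor groups stand at 85.7% or more, against 31.7% of all named genes.

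Several of these genes are themselves known targets of NF-kB, so their start-site sequences are shown before the signals. RefSeq promoter windows on GRCm38.p6, 250 bases before to 50 bases after an annotated start, were held for 40 of the 54 genes. They were searched on both strands, overlaps included, for the textbook NF-kB consensus of 10 bases. At least 1 window of 11 of the 40 genes (27.5%) held it, against 5.14% of 27025 genes and 4.51% of 32851 windows in the table. The share differed by group. The consensus was held by 4 of 5 NF-kB inhibitors, 2 of 3 subunits and 2 of 7 inflammasome genes. For Toll-like receptors and co-receptors it was 2 of 10, for adaptors and kinases 1 of 11 and for cytosolic sensors 0 of 4. The consensus was present for 10 of 22 listed genes above the threshold on both arrays, against 6.13% of 5338 protein-coding genes above it. It was present for 0 of 11 measured listed genes that were not above on both, against 6.07% of 8198 such protein-coding genes. The 0 of 11 lies near its background, and over protein-coding genes the shares above and not above the threshold were close to each other, so no link between motif and signal is read from these counts. Genes with several windows had more chances to match, and 14 of the 53 windows of the listed genes (26.4%) did. Overlapping windows of Casp4, and of Nfkb2, hold the same match and are each counted. The genes were Tlr2, Tlr3, Nlrp3, Casp4, Map3k7, Rel, Nfkb2, Nfkbia, Nfkbie, Tnfaip3 and Tnip1. A match describes letters and does not show that a factor binds there.

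The windows of the 4 inhibitors that matched, of the subunit gene Rel, of Casp4 and of Tlr2 are printed here because they cover the receptor, effector and feedback ends of the pathway. Matched bases are in capitals, and each window runs 5′ to 3′ along the gene's strand.
Nfkbia, chr12:55492598-55492897, minus strand: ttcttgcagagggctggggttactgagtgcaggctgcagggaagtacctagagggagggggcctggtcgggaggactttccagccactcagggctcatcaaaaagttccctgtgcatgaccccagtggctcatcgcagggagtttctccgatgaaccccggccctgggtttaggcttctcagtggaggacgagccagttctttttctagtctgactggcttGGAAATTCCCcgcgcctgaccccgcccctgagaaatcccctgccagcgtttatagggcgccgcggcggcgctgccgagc
Tnfaip3, chr10:19015361-19015660, minus strand: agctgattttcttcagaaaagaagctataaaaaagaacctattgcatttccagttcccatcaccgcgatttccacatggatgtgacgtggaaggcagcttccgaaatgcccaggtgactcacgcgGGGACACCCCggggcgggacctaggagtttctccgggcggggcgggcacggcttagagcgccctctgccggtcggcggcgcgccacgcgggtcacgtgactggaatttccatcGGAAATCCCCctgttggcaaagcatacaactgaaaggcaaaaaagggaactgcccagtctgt
Tnip1, chr11:54962891-54963190, minus strand: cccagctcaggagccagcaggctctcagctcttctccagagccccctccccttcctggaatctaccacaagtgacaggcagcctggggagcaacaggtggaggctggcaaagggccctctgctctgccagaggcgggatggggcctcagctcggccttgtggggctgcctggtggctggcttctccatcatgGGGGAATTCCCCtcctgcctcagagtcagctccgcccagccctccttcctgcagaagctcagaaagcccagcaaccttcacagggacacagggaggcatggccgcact
Nfkbie, chr17:45555450-45555749, plus strand: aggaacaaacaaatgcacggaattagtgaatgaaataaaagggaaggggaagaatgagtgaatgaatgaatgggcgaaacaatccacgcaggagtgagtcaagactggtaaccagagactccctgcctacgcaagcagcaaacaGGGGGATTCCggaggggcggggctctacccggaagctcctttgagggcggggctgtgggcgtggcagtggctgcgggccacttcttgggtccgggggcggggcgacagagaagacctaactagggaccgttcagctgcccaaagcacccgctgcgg
Rel, chr11:23770920-23771219, minus strand: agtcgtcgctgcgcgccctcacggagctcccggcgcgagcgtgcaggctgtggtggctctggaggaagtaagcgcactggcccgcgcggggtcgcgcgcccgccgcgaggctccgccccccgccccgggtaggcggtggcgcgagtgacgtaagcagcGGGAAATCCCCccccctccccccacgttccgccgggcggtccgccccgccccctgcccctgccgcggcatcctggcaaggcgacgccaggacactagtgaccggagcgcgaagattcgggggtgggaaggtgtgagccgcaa
Casp4, chr9:5308599-5308898, plus strand: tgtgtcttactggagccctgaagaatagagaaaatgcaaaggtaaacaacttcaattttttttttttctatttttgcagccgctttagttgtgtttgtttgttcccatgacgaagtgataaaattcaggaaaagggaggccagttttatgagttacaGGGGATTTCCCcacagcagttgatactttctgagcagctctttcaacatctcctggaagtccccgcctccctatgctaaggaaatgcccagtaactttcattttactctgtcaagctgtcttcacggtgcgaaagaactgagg
Tlr2, chr3:83841559-83841858, minus strand: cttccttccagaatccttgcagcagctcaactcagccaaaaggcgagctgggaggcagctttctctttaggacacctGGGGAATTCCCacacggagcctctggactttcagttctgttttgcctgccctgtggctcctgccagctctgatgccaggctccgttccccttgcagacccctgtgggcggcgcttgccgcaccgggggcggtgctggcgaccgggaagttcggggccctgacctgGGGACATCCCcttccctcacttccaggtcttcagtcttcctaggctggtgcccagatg
In Nfkbia the only match, GGAAATTCCC, began 29 bases before the start, and Map3k7 held the same 10 bases from 92 bases before its own. The printed window of Tnfaip3 held 2 matches, from 125 and from 12 bases before its start, and the other window of this gene held none. In Tnip1 the matches overlap in a run that begins 58 bases before the start, in Rel in a run from 92 bases before it, and in Casp4 in a run from 93 bases before it. The same Casp4 run begins 104 bases before another annotated start of that gene. Tlr2 held such a run from 173 bases and 1 further match from 8 bases before the start. Nfkbie held 1 match, from 106 bases before it. The single window of Nfkbib held none, which says only that these letters are not in that window.

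Among the Toll-like receptors 6 of 12 were above both thresholds, 2 above that of a single array and 4 above neither. Tlr3, the endosomal receptor of double-stranded RNA, had signals of 9.45 in replicate 1 and 9.81 in replicate 2 (9.63 ± 0.25, SD, n = 2). Tlr1, a partner of TLR2 in binding bacterial lipopeptides, had 9.17 and 9.12 (9.14 ± 0.04), and Tlr2 itself, the receptor of bacterial lipoproteins, had 6.96 on each. Tlr1 and Tlr3 lay over 2 on the log2 scale above the threshold of each array, whereas Tlr2 lay closest to it of the receptors that passed, 0.49 above the mean threshold.

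Among the other endosomal receptors, Tlr7, which binds single-stranded RNA, had 8.66 and 8.40 (8.53 ± 0.18). Tlr8, an RNA receptor in humans, had 7.75 and 7.11 (7.43 ± 0.45). Tlr9, the receptor of unmethylated CpG DNA, had 7.73 and 8.67 (8.20 ± 0.67). All were above the threshold on both arrays, but Tlr9 differed between the arrays by nearly the whole margin used here for a difference, as given further on.

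The receptors not above the threshold on both arrays included those of flagellin and lipopolysaccharide. Tlr5, the flagellin receptor, had 4.80 and 4.76, and Tlr4, the signalling receptor of lipopolysaccharide, had 5.76 and 5.48. Tlr6, which pairs with TLR2 as Tlr1 does, had 4.94 and 5.16, and Tlr11, a receptor of the profilin of Toxoplasma, had 5.70 and 5.53. None of these was above the threshold on either array. Tlr1 and Tlr6 are adjacent protein-coding genes in the GRCm38.p6 annotation, and only the feature of Tlr1 was above. Tlr7 and Tlr8, also adjacent, were both above.

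A pair of receptors fell on either side of the threshold by array. Tlr12, the partner of TLR11, had 6.75 and 5.93, above only on the array of replicate 1 and there by less than 0.01. Tlr13, a receptor of bacterial ribosomal RNA, had 6.45 and 7.28, above only on that of replicate 2. Ly96, the MD-2 protein that holds lipopolysaccharide for TLR4, had 7.72 and 6.66 (7.19 ± 0.75) and was above on both, while Tlr4 was on neither.

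Of 5 cytosolic sensors, 2 were above the threshold on both arrays and 3 on neither. Ifih1, the MDA5 sensor of long double-stranded RNA, had 9.53 and 10.16 (9.84 ± 0.45), and Nod1, a sensor of bacterial peptidoglycan fragments, had 7.56 on each. Its relative Nod2, the sensor of muramyl dipeptide, had 5.91 and 5.60, and Nlrc3, an inhibitory NOD-like protein, had 5.64 and 5.92. Nlrp10 had 3.44 and 3.55, the lowest signal of the 41.

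Inflammasome genes were above the threshold on both arrays in 6 of 7 cases, from sensor to pore. Nlrp3, a sensor of membrane and ion disturbance, had 11.56 and 11.68 (11.62 ± 0.09). Pycard, the ASC adaptor that joins sensor to caspase, had 10.27 and 10.26 (10.26 ± 0.01). Casp1 had 11.80 and 12.34 (12.07 ± 0.38), and its neighbour in the annotation, Casp4, a caspase that responds to lipopolysaccharide in the cytosol, had 11.04 and 11.44 (11.24 ± 0.28). Each of these 4 was far from the threshold, Pycard by 3.80 and Casp1 by 5.61 over its mean. Casp1 and Casp4 are related in sequence, and how far their probes share signal is not known.

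The other inflammasome genes gave lower values. Aim2, the sensor of cytosolic DNA, had 7.46 and 7.79 (7.62 ± 0.24), and Gsdmd, the pore protein gasdermin D, had 7.31 and 7.35 (7.33 ± 0.03). Nlrp6, a NOD-like receptor studied mainly in intestinal epithelium, had 5.76 and 6.91 and was above only on the array of replicate 2.

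Of 8 adaptors and kinases, 5 were above the threshold on both arrays. Myd88, the adaptor of most Toll-like receptors, had 9.70 and 9.83 (9.77 ± 0.09). Irak2, a kinase of the MyD88 complex, had 8.53 and 8.86 (8.69 ± 0.23), and Irak3, a family member that restrains it, had 8.15 and 8.66 (8.41 ± 0.36). Further along, Map3k7, the TAK1 kinase, had 8.48 and 8.71 (8.60 ± 0.17), and Ikbkb, the catalytic IKK beta subunit that phosphorylates the NF-kB inhibitors, had 8.15 and 8.56 (8.36 ± 0.29). The exceptions lay at the scaffold, the ligase and the mitochondrial adaptor. Ikbkg, the regulatory NEMO subunit, had 5.79 and 5.84 and was above on neither array. Traf6, the ubiquitin ligase between IRAK and TAK1, had 6.68 and 7.05, above on the array of replicate 2 and 0.06 below the threshold of replicate 1. Mavs, the mitochondrial adaptor on which MDA5 signals, had 6.13 and 5.77 and was above on neither, while Ifih1 was on both.

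Both measured NF-kB subunits were above the threshold. Rel, the c-Rel subunit of lymphoid and myeloid cells, had 14.21 and 14.68 (14.45 ± 0.33), 7.98 above the mean threshold. Relb, the subunit of the alternative pathway, had 8.66 and 8.63 (8.64 ± 0.02).

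All 6 inhibitors were above the threshold on both arrays. Nfkbia, the IkB alpha protein that holds NF-kB in the cytosol and is resynthesised after activation, had 14.21 and 14.30 (14.26 ± 0.07). Tnfaip3, the ubiquitin-editing enzyme that ends signalling, had 12.64 and 13.47 (13.05 ± 0.59), and Nfkbiz, an inducible nuclear IkB protein that can also activate genes, had 12.25 and 12.32 (12.28 ± 0.05). Nfkbib, the IkB beta gene, had 11.22 and 11.08 (11.15 ± 0.10). The remaining genes were lower but passed: Tnip1, a partner of the Tnfaip3 protein, had 8.28 and 8.64 (8.46 ± 0.26), and Nfkbie, the IkB epsilon gene, had 8.33 and 7.82 (8.08 ± 0.36). None of the 41 features lay at the highest value of its array or differed by the difference of the highest values.

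**Figure D2:**
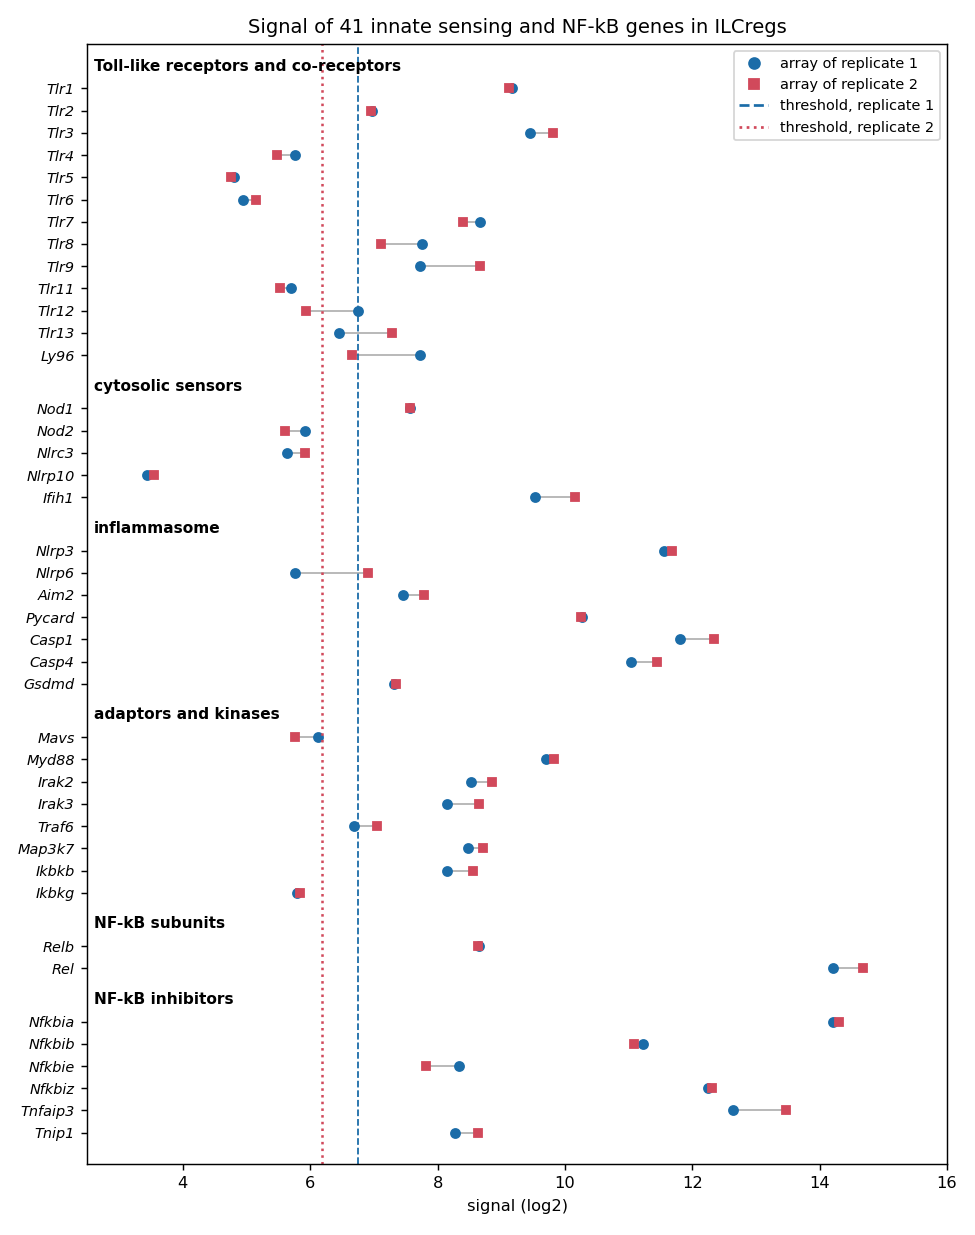
Log2 signal of the 41 measured genes on the array of replicate 1 (blue circles) and of replicate 2 (red squares), grouped by role, with the threshold of each array as a dashed or dotted line. Rel and Nfkbia lie above 14, and Tlr4, Tlr5, Tlr6 and Tlr11 lie left of both lines.

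Further genes of the pathway, taken from lists of its known components, were above the threshold on both arrays in 49 of 70 measured cases (70.0%). The share was 31.7% over all named genes and 38.9% over protein-coding genes outside the receptor reference. These backgrounds apply to each list that follows. Of inducible targets of NF-kB 10 of 12 passed. Ptgs2, the inducible cyclooxygenase, had 16.03 and 16.39, Cxcl2, a neutrophil-attracting chemokine, 13.73 and 13.62, and Icam1 12.03 and 12.85, whereas Il12b had 6.45 and 5.79 and was above on neither array. Ccl20 was above only on the array of replicate 2, and Ccl4, with 6.94 and 7.47, passed on both.

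Among further inflammasome genes 7 of 10 passed. Il1b, the cytokine that caspase 1 matures, had 14.69 and 15.06, Il1a had 12.15 and 11.96, and Nek7, a binding partner of NLRP3, had 9.94 and 10.38. Il18, the other main cytokine substrate, had 5.99 and 6.12 and was above on neither, and so were Gsdme (4.84 and 4.86) and Card9 (4.02 and 3.84).

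Further cytosolic sensors passed in 8 of 14 cases. Ifi204, an interferon-inducible DNA-binding protein, had 12.26 and 12.36, and Trim25, a ubiquitin ligase that acts on the RIG-I sensor, had 11.39 and 11.32. Naip6, of the family that feeds bacterial proteins to NLRC4, had 9.33 and 10.15. Nlrp12 (4.06 and 4.20), Nlrp1a (4.71 on each) and Mb21d1, the cGAS sensor of cytosolic DNA (5.50 and 5.11), were above on neither array. Ddx58, the RIG-I sensor, had 8.23 and 9.48, both above the threshold.

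Further receptors and adaptors passed in 13 of 18 cases and further NF-kB regulators in 11 of 16. Peli1, a ubiquitin ligase of the IRAK complex, had 10.90 and 11.28, Ly86 had 10.74 and 10.70, and Tab2, a partner of TAK1, had 10.11 and 10.02. Birc3, a ubiquitin ligase of TNF receptor signalling, had 10.10 and 10.51, and Birc2 had 8.54 and 9.28. At the low end, Sarm1 had 3.95 and 3.68, Peli2 5.64 and 5.28 and Sigirr, an inhibitory receptor of the family, 5.45 and 5.61. Traf5 had 5.28 and 5.56, Tnip2 5.88 and 5.99 and Traf2 6.11 and 5.87. None of these 6 was above the threshold on either array.

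Markers of several cell types were above the threshold on the same arrays, so a signal cannot be assigned to one of them. In this bulk RNA, fewer cells of a type and less RNA per cell cannot be told apart. Of the ILCreg and ILC list 10 of 11 measured genes passed, with medians of 9.45 and 9.84. They included Il10 (10.59 and 11.05), Id2 (12.23 and 11.93), Id3 (9.45 and 10.04) and Sox4 (9.33 and 9.51), while Thy1 (5.56 and 5.72) did not pass. Macrophage markers, of a cell type that uses most of these sensors, passed in 10 of 11 cases. Their signals ranged from 5.58 for Cd163, which was below on both arrays, to 14.71 for Lyz2, with list medians of 9.64 in replicate 1 and 10.19 in replicate 2. Epithelial markers passed in 10 of 12 cases, with medians of 11.76 and 11.45 and with Lgr5 and Chga below on both. The highest were Krt8 (15.42 and 15.76), Agr2 (14.03 and 13.62) and Krt19 (13.30 and 13.70). All 7 stromal markers passed, with medians of 13.54 and 14.86. The highest were Dpt (19.80 and 19.86), Dcn (19.28 and 19.34) and Lum (14.85 and 14.86).

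T cell markers passed in 4 of 7 cases (medians 7.51 and 8.38). Cd3e (9.68 and 9.90), Cd3g (8.97 and 9.25) and Cd3d (8.97 and 8.61) were above on both arrays, Cd247 and Cd8a below on both. B and plasma cell markers passed in 4 of 7 cases (medians 6.76 and 7.13). In the B and plasma cell list Pax5, Cr2 and Tnfrsf17 were below on both arrays, while Jchain, the joining chain of secreted antibodies, had 17.47 and 18.11 and Xbp1, a transcription factor of secretory cells including plasma cells, had 13.24 and 13.76. Dendritic cell markers passed in 3 of 9 cases (medians 5.89 and 6.27), Ccr7 (9.33 and 8.90), Itgax (9.23 and 8.97) and Clec9a (7.79 and 7.90). Flt3, Zbtb46, Xcr1 and Siglech were below on both. Neutrophil markers passed in 2 of 9 (medians 5.23 and 4.65), S100a9 (7.90 and 6.70) and Csf3r (6.94 and 7.01). S100a8, Ly6g, Retnlg, Mpo, Elane, Camp and Cxcr2 were below on both. Of immediate early and dissociation stress genes 9 of 10 passed, with medians of 12.55 and 12.78, Fosb at 17.21 and 17.52 and Ier3 below on both. The part of these cells and of stress in the signals of Nlrp3, Casp1, Nfkbia, Tnfaip3 or any other sensing gene was not tested.

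**Figure D3:**
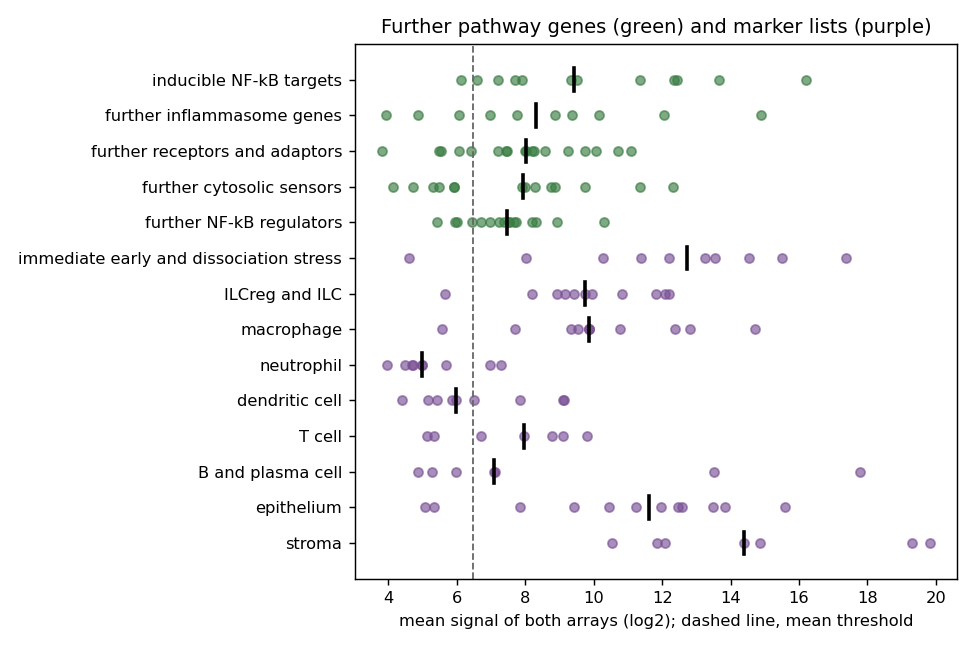
Mean log2 signal over both arrays of each gene in the further pathway lists (green) and marker lists (purple), with list medians as black bars and the mean threshold as a dashed line. Medians of the stress, macrophage, epithelial and stromal lists lie right of the line, and that of the neutrophil list lies left of it.

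Differences between the arrays are replicate 2 minus replicate 1 on the log2 scale, less the median difference of all named genes (-0.05). The pooled replicate SD was 0.33 over the 41 genes, against 0.31 over all named genes. The median size of the difference was 0.32, against 0.21 over all named genes, and 0.38 among the 28 above the threshold on both arrays, against 0.28 of named and 0.27 of protein-coding genes above it. A difference of over 1 in size, which is 2-fold if the log base is 2, was seen for 2 of 41 genes, against 3.45% of all named genes. Of these, 1 had the higher signal in replicate 2, as did 1.48% of all named genes, and 1 in replicate 1, as did 1.97%.

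These were Nlrp6, with a difference of 1.20 and a signal above the threshold on the array of replicate 2 alone, and Ly96, with a difference of -1.01. Just inside the limit lay Tlr9, with 0.99. Tlr13 and Tnfaip3 followed with 0.88 each, and Tlr12 had -0.77. All of these set a single array against another, with nothing to check them.

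Of the 41 sensing genes 30 had positive centred differences (median 0.16), against 55.6% of protein-coding genes outside the receptor reference (median 0.04). By group, these were all 7 inflammasome genes (median 0.38), 7 of 8 adaptors and kinases (median 0.33), both NF-kB subunits (median 0.27), 4 of 5 cytosolic sensors (median 0.16) and 4 of 6 inhibitors (median 0.13), with Nfkbie at -0.46 and Nfkbib at -0.09. Toll-like receptors and co-receptors were divided, 6 positive and 7 negative (median 0.00). The positive signs of Tlr2, Tlr5, Nod1, Pycard and Relb rest on the centring, as their differences before it were -0.0392 to -0.0015. The shares of protein-coding genes rest on the centring too. Over the 28 genes above the threshold, 22 were positive (median 0.18). Protein-coding genes above the threshold leaned the same way, 63.7% being positive with a median of 0.13. The marker lists moved in both directions. Median differences were 0.36 for the ILCreg and ILC list, 0.27 for stress genes, 0.20 for T cell, 0.08 for B and plasma cell, 0.06 for dendritic cell and 0.01 for macrophage markers. Stromal markers were all positive with a median of 0.18, among them Col1a1, Col1a2 and Col3a1 by 1.74 to 2.08. Dpt, in replicate 2 at the highest value of the data (19.86), and Dcn shared a difference of 0.1062. Whether the highest values of the arrays set that difference was not tested. Epithelial markers had a median of -0.34, 8 of 12 being negative, with Fabp1 at -1.09. Neutrophil markers had a median of -0.18, with S100a8 at -1.44 and S100a9 at -1.15, and the B cell marker Cr2 had -1.42. Among the further pathway genes only Ddx58 differed by over 1 (1.29). The part of such differences in those of the sensing genes was not tested.

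**Figure D4:**
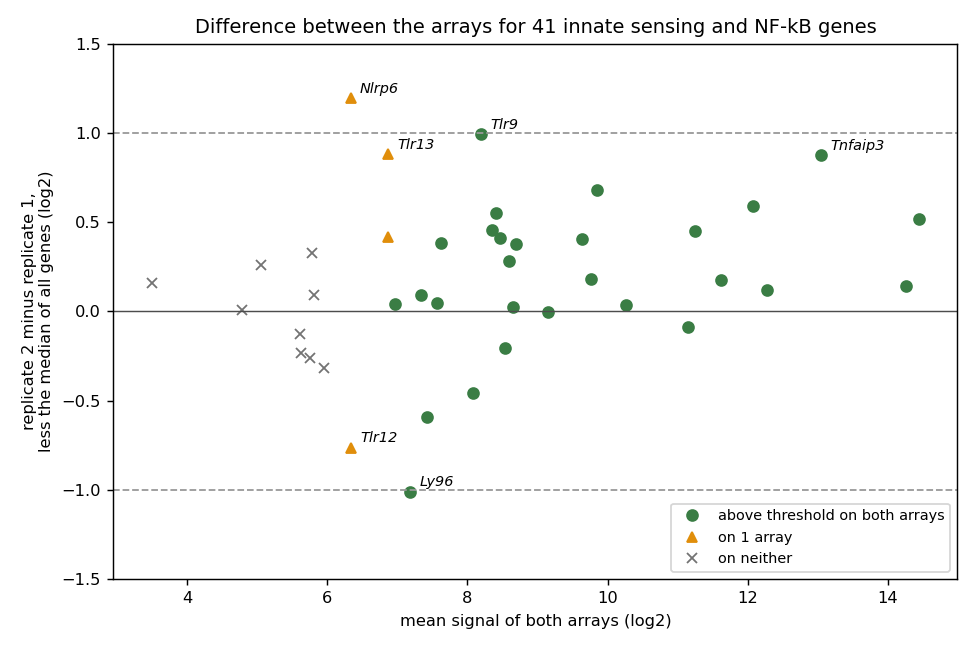
Difference of replicate 2 minus replicate 1, less the median of all named genes, against the mean log2 signal of each of the 41 genes, with symbols for the number of arrays above the threshold and dashed lines at -1 and 1. Nlrp6 and Ly96 lie outside the lines, and Tlr9 lies just inside.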

How the data were processed

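Whole-transcript arrays of 2 ILCreg samples were analysed. The deposited values, 1 per feature and array between 2.10 and 19.86, are read here as log2 signal because of that range; no source names the log base. Per the submitters' processing notes the tool was MAS5, with no version or role; how features were summarized and scaled, and on which build, is not stated in the labels. Of 61344 features, 28573 carried 1 gene symbol, 2014 several (not named) and 30757 none. Symbols other than those of the list were updated through 21104 of 21331 Entrez identifiers held by the GRCm38.p6 gene table (783 changed). Of 213 genes with several features the one of highest mean signal was used. Counts above the threshold, medians and centred differences were computed with numpy 2.4.6 and pandas 2.3.3 under Python 3.11.15 and tested on simulated data. No new normalization was applied; array medians were 5.02 and 4.90. Alternatives were other thresholds, reference genes, feature summaries, centrings, quantile normalization and each array alone. Members and lists were chosen with earlier results of these data known. Every measured member is named; of each other list, the 3 genes of highest and the 3 of lowest mean signal and those over 1 apart between the arrays could be named. Il10, Id3, Sox4, Siglech and further neutrophil markers were named after their values were seen.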

Additional observations from a re-analysis of the deposited data

Results flagged for a closer look

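Among the 2014 features that carry several symbols and entered none of the results, 2 carry the symbol of a listed gene together with those of microRNAs. Each exceeded both thresholds, with mean log2 signals of 7.34 (7.37 and 7.32) and 8.98 (8.89 and 9.07). They drew attention as signal in features left unused, and no gene is named for them.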

How the results depend on the processing

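The count of 28 sensing genes over the threshold moved by less than 1.5 times under all alternatives run for it, to 31 with the 90th percentile of the reference genes, 21 with the 99th, 29 with keratin-associated protein and Rhox genes as reference, 28 with the median over features, and 29 to 31 without replicate 2 or replicate 1. The count of all named genes, 8971 as reported, moved as well. It was 11026 with the 90th percentile, 9843 with the other reference and 8941 with the median over features. Without replicate 2 it was 9147, and without replicate 1 it was 10925. With the 99th percentile, stricter by construction, the count of Toll-like receptors and co-receptors fell to 3, that of cytosolic sensors to 1 and that of all named genes to 5588. There the lower of a gene's margins over the thresholds was -0.94 for Tlr2, -0.16 for Tlr8, -0.18 for Tlr9, -0.55 for Ly96, -0.34 for Nod1, -0.45 for Aim2 and -0.60 for Gsdmd, which no longer passed. With the 90th percentile Tlr12 (0.27), Tlr13 (0.28) and Traf6 (0.51) passed, and with the other reference Traf6 did (0.20). Over each array alone the margin ran from -0.26 to 0.0027 for Tlr12, from -0.29 to 1.09 for Tlr13, from -0.98 to 0.72 for Nlrp6 and from -0.06 to 0.86 for Traf6. No centring, centring on genes above the threshold and quantile normalization left 2 sensing genes over 1 apart. Restricted to genes above the threshold, 1 of 28 sensing genes was, and 373 of 8971 named genes. Without that restriction it was 976 of 28281 named genes. The median difference of the sensing genes lay between 0.11 and 0.18. The promoter search was first run with a different form of the motif, in which other letters are allowed at some positions. It matched 11 of 40 genes (27.5%), against 5.48% of all genes. Whether these were the same 11 genes is not given here. No paired analysis was possible because there is 1 group, and with 1 array left no difference can be computed. Signal near the threshold limits what can be called for Tlr2, Tlr12, Tlr13, Traf6 and Nlrp6. The calls of Tlr8, Tlr9, Ly96, Nod1, Aim2 and Gsdmd also depend on the percentile chosen. Mavs came close to passing with the 90th percentile, at a lower margin of -0.04.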
